A study of Mus musculus with 238 samples.

Results

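The 7 mouse sirtuin genes, Sirt1 to Sirt7, were followed in brain and liver RNA of aged C57BL/6JN mice. They were found by symbol, and all 7 had a row among the 21076 gene rows of the deposited count table. Every sirtuin had at least 1 count in each of the 238 libraries, and all 7 passed the filter on low counts in every comparison.

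All animals were 19 months old. In the diet experiment, 5 dietary restricted female mice (labelled aDR, and DR for their livers; mice 61, 62, 64, 65 and 67) were compared with 4 females fed ad libitum (AL; mice 63, 66, 68 and 69), in 131 libraries of 15 brain regions and 9 libraries of liver. In the plasma experiment, 3 male mice given plasma of young mice by retro-orbital injection (YMP; mice 73, 77 and 81) were compared with 4 males injected with phosphate-buffered saline (PBS; mice 72, 76, 80 and 84), in 98 libraries of the same regions. Corpus callosum, entorhinal cortex and hypothalamus of the diet mice, and cerebellum, posterior hippocampus, hypothalamus, pons, visual cortex and corpus callosum of the plasma mice, lacked the library of 1 or 2 animals and were fitted without them. Sex and experiment coincide, so values of the diet and plasma mice are set side by side here and never tested against each other. The libraries are of whole dissected tissue, so fewer cells of a type and less RNA per cell cannot be told apart.

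Sirtuins are enzymes that remove acetyl and other acyl groups from proteins and consume NAD in each reaction, which ties their activity to the energy state of the cell. Sirt1, Sirt6 and Sirt7 act mainly in the nucleus, Sirt2 mainly in the cytosol, and Sirt3, Sirt4 and Sirt5 in mitochondria. Sirt1 deacetylates transcription factors and histones and is widely studied in dietary restriction, and Sirt2 is known in the brain as a protein of myelinating oligodendrocytes. The enzymes are regulated by NAD supply and by protein partners as well as by the amount of mRNA, and only mRNA was measured here.

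In the GENCODE annotation of the GRCm38 build, the genes lie at chr10:63319005-63381704 (Sirt1, minus strand), chr7:28766735-28788661 (Sirt2, plus strand), chr7:140863666-140882309 (Sirt3, minus strand), chr5:115478010-115484725 (Sirt4, minus strand), chr13:43365496-43395203 (Sirt5, plus strand), chr10:81621785-81627797 (Sirt6, minus strand) and chr11:120618372-120625240 (Sirt7, minus strand). The libraries carry no strand information, and exons of Sirt3 share 418 bases with exons of Ric8a and 342 bases with exons of Psmd13, both on the other strand. These shared bases make up 12.7% of the exon length of Sirt3, and the share of Sirt3 counts that they carry was not measured. For Sirt7 the shared part was 3.46% of the exon length, for Sirt1 1.22% and for Sirt2 0.834%, and Sirt4, Sirt5 and Sirt6 had none.

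The promoter of Sirt1 is shown because it holds the E-box CACGTG, the site bound by the clock factor that the gene Arntl encodes, and Arntl was among the genes that changed with diet (below). The stretch lies at chr10:63339066-63339285 of GRCm38.p6 in RefSeq, read on the minus strand 5′ to 3′, with both E-boxes in capitals.
Sirt1 promoter: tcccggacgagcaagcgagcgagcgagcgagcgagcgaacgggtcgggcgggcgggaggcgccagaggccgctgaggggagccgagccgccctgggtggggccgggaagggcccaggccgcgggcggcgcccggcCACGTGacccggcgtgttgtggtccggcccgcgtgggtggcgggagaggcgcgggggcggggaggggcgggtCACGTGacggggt
The E-boxes begin 115 and 43 bases upstream of the RefSeq start. CACGTG reads the same on both strands, and it was found in none of the RefSeq promoter windows of the other 6 sirtuins. In all, 6.02% of 32851 promoter windows of 250 bases held it. The stretch lies inside the GENCODE span of Sirt1, which reaches to chr10:63381704. The match describes these letters and says nothing about binding in these tissues. Sirt1 itself was not called with diet (below), and a link between Arntl and Sirt1 was not tested.

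The depth of the libraries was between 0.606 and 32.4 M counts over all genes (M for mega; median 8.44 M), with 6 libraries below 2 M. A library held a median of 120.5 counts of Sirt1, 1208 of Sirt2, 693 of Sirt3, 67.5 of Sirt4, 199.5 of Sirt5, 64 of Sirt6 and 394.5 of Sirt7, so Sirt1, Sirt4 and Sirt6 are the least precise. Reads carried no molecular identifiers. In pons of aDR mouse 67, the library held the pituitary hormone genes Prl at 151400 CPM (counts-per-million, with the library size scaled by TMM) and Gh at 32500 CPM, against at most 1339 and 383 CPM in the other pons libraries. A total of 12 of 229 brain libraries were closer in whole profile to the mean of another region than to their own. They were 1 AL, 2 aDR, 4 PBS and 5 YMP libraries. Among them were caudate putamen of PBS mouse 76 (closest to corpus callosum) and entorhinal cortex of PBS mouse 72 (closest to visual cortex). SVZ and choroid plexus of YMP mice 73 and 77 were also among them. Choroid plexus libraries of AL mice varied from 661 to 8767 CPM in the summed markers of the choroid plexus epithelium and also held 6248 to 21720 CPM of oligodendrocyte markers. Their neuron markers averaged 6183 CPM, so these libraries are not of choroid plexus alone. Corpus callosum of AL mouse 66 held 11240 CPM of the choroid plexus markers. Liver libraries held 148300 to 203300 CPM of hepatocyte markers.

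The first question was how the sirtuins are distributed over the brain of control mice. Levels of different genes are compared only per kilobase of exon length. On that scale Sirt2 was the most abundant, with a mean over the 15 regions of AL mice of 29.96 CPM per kb, followed by Sirt3 at 13.6 and Sirt7 at 8.60 CPM per kb. Sirt5 (3.86), Sirt4 (3.50), Sirt1 (2.87) and Sirt6 (2.76 CPM per kb) lay well below. In PBS mice the means were 30.73 for Sirt2, 13.31 for Sirt3 and 8.61 CPM per kb for Sirt7, and 2.62 to 4.01 CPM per kb for the other 4 genes.

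Each region was then tested against the mean of the other 14 in the same fit (edgeR quasi-likelihood test, Benjamini-Hochberg adjusted p under 0.05). In AL mice 53 of the 105 sirtuin tests were called, 29 higher and 24 lower, beside 47.6% of all gene and region tests. In PBS mice 47 of 105 were called, 25 higher and 22 lower, beside 41.3% of all tests. These shares are near the background, so regional differences were about as frequent among sirtuins as among genes in general. The direction of the contrast was the same in both sets of mice for 89 of the 105 tests, and 38 tests passed in AL and in PBS mice alike, with matching signs in all 38. Leaving out the libraries closer to another region gave 53 calls in AL and 45 in PBS mice, and leaving out choroid plexus gave 53 and 42 of the 98 tests that remained.

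**Figure D1:**
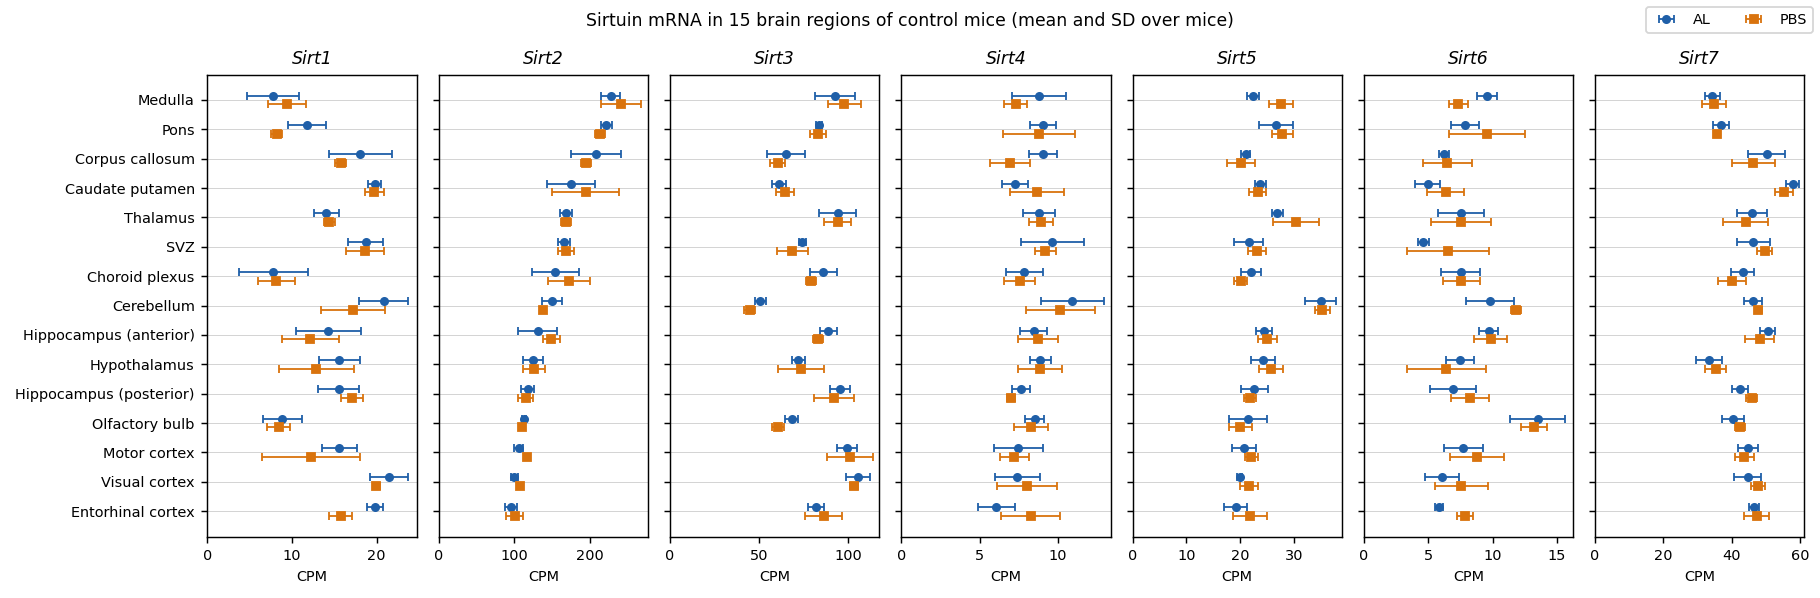
Level of each sirtuin (CPM, linear axis from 0, separate scale for each gene) in 15 brain regions of control mice. Points are means and bars SD over 3 or 4 mice, circles AL and squares PBS, with regions ordered by Sirt2 in AL mice. Sirt2 ran from 95.7 to 228 CPM in AL mice, and Sirt5 stood out in cerebellum.

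Among the nuclear sirtuins, Sirt1 was highest in visual cortex and low in medulla, olfactory bulb and choroid plexus. Sirt1 was at 24.1, 20.9, 18.7 and 22.1 CPM in visual cortex of AL mice 63, 66, 68 and 69, and at 9.93, 10.8, 4.85 and 5.39 CPM in their medulla. The 2 regions did not overlap. The region means were 21.4 ± 2.25 and 7.75 ± 3.07 CPM (SD, n = 4 each). Visual cortex was 0.59 log2 units above the other regions (SE 0.155, adjusted p = 0.00148) and medulla 0.99 below (log2 -0.99, SE 0.179, adjusted p = 5.247e-06). Cerebellum, entorhinal cortex, caudate putamen and SVZ were also called higher, and choroid plexus and olfactory bulb lower. In PBS mice visual cortex was again highest, at 19.97 ± 0.412 CPM (n = 3), and choroid plexus (8.11 ± 2.19 CPM, n = 4) and pons (8.17 ± 0.657 CPM, n = 3) were lowest. Choroid plexus is named by its label, since those libraries also held markers of neurons and oligodendrocytes. In the AL order of regions, only 2 of 14 steps between neighbours exceeded the larger of the neighbours' SDs, those from thalamus to pons and from pons to olfactory bulb.

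Sirt6, a nuclear enzyme known for roles in DNA repair and telomere maintenance, was highest in olfactory bulb. It was at 15.0, 15.4, 12.7 and 10.9 CPM in olfactory bulb of AL mice 63, 66, 68 and 69, and at 5.14, 4.10, 4.50 and 4.796 CPM in their SVZ. Every olfactory bulb value lay above every SVZ value. The means were 13.5 ± 2.13 and 4.63 ± 0.441 CPM. Olfactory bulb exceeded the other regions by 0.89 (log2, SE 0.113, adjusted p = 1.688e-09) in AL mice and by 0.74 (SE 0.161, adjusted p = 0.000116) in PBS mice. Cerebellum was also called higher in both sets of mice. The lower calls in caudate putamen and SVZ of AL mice had no counterpart past the threshold in PBS mice. Medulla was called higher in AL mice (log2 0.40, adjusted p = 0.00424) but lay at -0.14 in PBS mice (adjusted p = 0.537). These differences between the 2 sets of mice were not tested.

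Sirt7, a nucleolar enzyme linked to transcription by RNA polymerase I, was highest in caudate putamen and lowest in hypothalamus and medulla. Caudate putamen of AL mice 63, 66, 68 and 69 held 60.0, 56.7, 59.0 and 55.8 CPM, and hypothalamus 35.7, 34.8, 35.5 and 27.8 CPM. The 2 regions were far apart beside a spread of a few CPM within each. Caudate putamen was 0.42 above the other regions in AL mice (log2, SE 0.0530, adjusted p = 3.491e-09) and 0.33 above them in PBS mice (SE 0.0622, adjusted p = 2.574e-05). Hypothalamus, medulla and pons were called lower in both sets.

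Sirt2, the cytosolic tubulin deacetylase, was highest in medulla, pons and corpus callosum and lowest in entorhinal and visual cortex. It was at 210, 229, 236 and 236 CPM in medulla of AL mice 63, 66, 68 and 69, and at 99.7, 101 and 86.9 CPM in entorhinal cortex of AL mice 63, 66 and 69. The means were 228 ± 12.6 CPM (n = 4) and 95.7 ± 7.68 CPM (n = 3), a ratio of 2.38. Medulla exceeded the other regions by 0.70 (log2, SE 0.0753, adjusted p = 3.732e-11) and entorhinal cortex lay at -0.63 (SE 0.101, adjusted p = 1.782e-06). PBS mice gave 0.76 and -0.60 for the same regions, with means of 242 ± 26.7 and 101 ± 11.4 CPM (n = 4 each). Medulla, pons and corpus callosum were the highest 3 regions in both sets of mice, and entorhinal and visual cortex the lowest. All 12 Sirt2 calls in AL mice were also called in PBS mice.

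The summed level of 12 oligodendrocyte markers, among them the myelin gene Mbp, moved with Sirt2. The sum averaged 26550 CPM in medulla, 26730 CPM in pons and 27540 CPM in corpus callosum of AL mice, against 1228 CPM in entorhinal cortex and 2757 CPM in visual cortex. Across the 15 region means of log2 CPM, Pearson's r between Sirt2 and the sum was 0.955 in AL and 0.971 in PBS mice. These points share libraries and scaling, so r is a description. The r of Sirt2 with astrocyte markers was 0.555 and 0.523, and with neuron markers -0.237 and -0.216. The part of oligodendrocyte number in the regional pattern of Sirt2 was not tested.

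**Figure D2:**
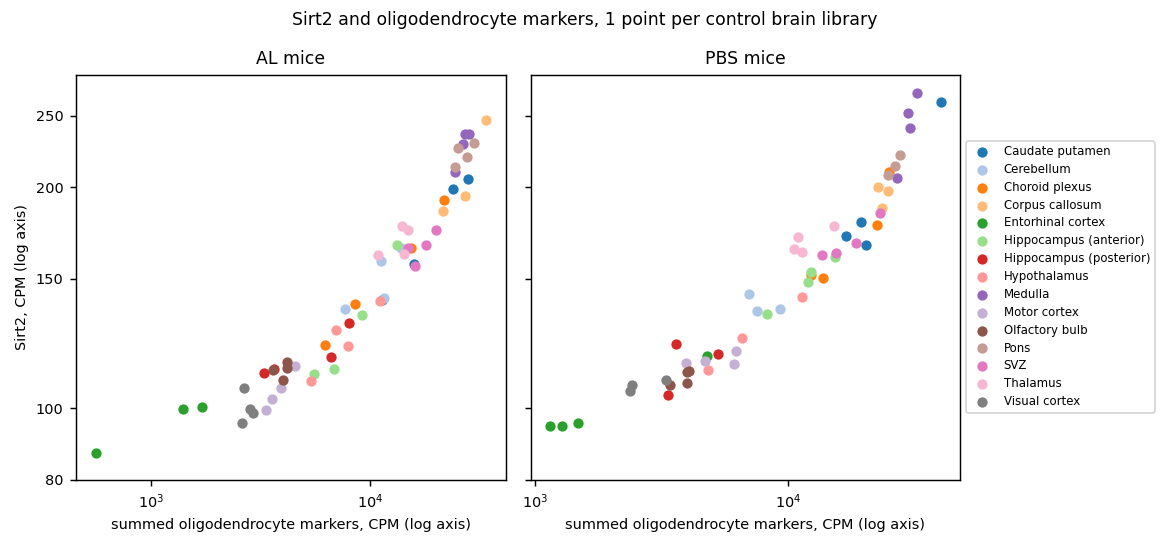
Sirt2 (CPM, log axis) against the sum of 12 oligodendrocyte markers (CPM, log axis), with 1 point per brain library of AL mice (left) and PBS mice (right), coloured by region. Caudate putamen of PBS mouse 76 lies at the upper right, at 261 CPM Sirt2 and 39990 CPM of markers, away from the other 3 caudate libraries.

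Among the mitochondrial sirtuins, Sirt3, the main mitochondrial deacetylase, was highest in visual and motor cortex and lowest in cerebellum. Visual cortex of AL mice 63, 66, 68 and 69 held 97.4, 104, 112 and 109 CPM, and cerebellum 52.3, 53.9, 49.2 and 47.0 CPM. The groups were well separated, and the means of 106 ± 6.64 and 50.6 ± 3.11 CPM differed 2.09-fold. Cerebellum lay at -0.73 against the other regions in AL mice (log2, SE 0.0621, adjusted p = 1.326e-14) and at -0.88 in PBS mice (SE 0.0894, adjusted p = 1.832e-11). Visual and motor cortex, thalamus, medulla and posterior hippocampus were called higher in both sets, and caudate putamen, corpus callosum and olfactory bulb lower. The r of Sirt3 with 6 neuron markers over regions was 0.653 in AL and 0.595 in PBS mice. Its neighbours Psmd13 and Ric8a, whose exons overlap those of Sirt3, had r of 0.812 and 0.808 with it in AL mice. Other overlapping pairs had lower r in AL mice, -0.14 for Sirt7 and Mafg (124 shared exon bases) and -0.014 for Sirt2 and Nfkbib (42). The part of shared reads in the Sirt3 pattern was not tested.

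Sirt5, which removes succinyl and malonyl groups, stood out in cerebellum. It was at 37.6, 34.7, 31.0 and 36.8 CPM in cerebellum of AL mice 63, 66, 68 and 69, while no other AL region mean exceeded 27.0 CPM. Cerebellum was 0.60 above the other regions (log2, SE 0.0650, adjusted p = 2.919e-11) in AL mice and 0.57 above them in PBS mice (SE 0.0749, adjusted p = 1.353e-08). Thalamus and pons were called higher in both sets. Sirt4, an enzyme known to restrain glutamate dehydrogenase, ran from 10.9 ± 2.04 CPM in cerebellum to 6.08 ± 1.17 CPM in entorhinal cortex. Cerebellum was the only Sirt4 call that both sets of mice shared (log2 0.39, SE 0.103, adjusted p = 0.000849 in AL; 0.30, SE 0.132, adjusted p = 0.0443 in PBS). The region contrasts of Sirt4 had r of 0.532 between AL and PBS mice, against 0.818 to 0.975 for the other 6 sirtuins. Over the AL regions the pair most alike among the 7 was Sirt4 and Sirt5, with r of 0.70, and 0.65 in PBS mice, where Sirt1 and Sirt7 were most alike (0.763, and 0.539 in AL mice).

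The genes whose regional pattern was most like that of each sirtuin were taken from 11955 genes of at least 5 CPM, by Pearson's r over the 15 AL region means of log2 CPM. For Sirt2 they were Gltp, a glycolipid transfer protein (r 0.987 in AL, 0.987 in PBS mice), Rasgrp3 (0.984 and 0.986) and Cryab, a small heat shock protein (0.983 and 0.976). For Sirt3 they were Tmem63b (0.922 and 0.952), Ntmt1 (0.917 and 0.846) and Chmp6 (0.907 and 0.775). For Sirt7 they were Rab40c (0.924 and 0.903), Ubtf, an RNA polymerase I factor (0.909 and 0.93), and Dnajc14 (0.902 and 0.729). For Sirt6 they were Sox18, a vascular transcription factor (0.954 and 0.905), Marf1 (0.922 and 0.885) and Paip1 (0.91 and 0.825). For Sirt5 they were Nck1 (0.899 and 0.948), Mipol1 (0.894 and 0.85) and Golph3l (0.884 and 0.671). For Sirt1 they were Zfp112 (0.908, but 0.324 in PBS mice), Rcor1 (0.9 and 0.826) and Axin1 (0.883 and 0.805). The genes nearest to Sirt4, Oard1 (0.901), Lbr (0.886) and Tor1aip1 (0.879), fell to 0.477, 0.423 and 0.581 in PBS mice. The r in AL mice is the highest of many by choice, and the PBS value is from other mice.

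The second question was whether dietary restriction changed sirtuin mRNA across the brain. Each mouse gave 1 value per gene, its log2 CPM over all its brain regions after adjustment for region, and limma compared the 5 aDR with the 4 AL mice. None of the 7 sirtuins passed an adjusted p of 0.05, beside 1.75% of 15616 genes. At an unadjusted p under 0.05 there was 1 sirtuin, Sirt1, beside 16.8% of all genes. That count was 2 without the pons library of aDR mouse 67, 0 without AL mouse 63 or AL mouse 69, 2 without AL mouse 68, aDR mouse 65 or aDR mouse 67, and 1 without libraries under 2 M counts or without choroid plexus. For none of the 7 did the values of the 2 groups separate without overlap, beside 8.3% of all genes.

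Sirt1 had the smallest p-value of the 7. Its brain values were 4.02, 3.96, 3.99, 4.04 and 4.03 in aDR mice 61, 62, 64, 65 and 67, and 3.84, 3.96, 3.95 and 3.83 log2 CPM in AL mice 63, 66, 68 and 69. AL mice 66 and 68 lay beside the lowest aDR mouse, and the groups overlapped. The difference was 0.11 log2 units (SE 0.0405, 95% interval 0.023 to 0.201, unadjusted p = 0.0184, adjusted p = 0.194), and the difference was above 0 in 13 of 15 regions (range -0.16 to 0.32). Over the alternative settings its adjusted p ran from 0.150 to 0.404.

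Sirt4 went the other way. Its brain values were 2.94, 3.01, 3.01, 2.92 and 3.14 log2 CPM in aDR mice 61, 62, 64, 65 and 67, and 3.12, 3.17, 3.04 and 3.13 log2 CPM in AL mice 63, 66, 68 and 69. Mouse 67 was the only aDR mouse within the AL range, and its pons library, which held the pituitary genes, was the highest aDR pons library for Sirt4 (13.7 CPM, next 8.63 CPM). The difference was -0.11 (SE 0.0546, 95% interval -0.231 to 0.009, adjusted p = 0.338), with lower values in 11 of 15 regions, and was -0.12 (adjusted p = 0.239) without that library. Sirt7 was higher in 14 of 15 regions by small amounts, with a difference of 0.07 (95% interval -0.020 to 0.160, adjusted p = 0.423). Sirt5 was at -0.05 (95% interval -0.127 to 0.018, adjusted p = 0.443) and lower in 11 of 15 regions. Sirt2 (0.04, 95% interval -0.044 to 0.119), Sirt3 (0.02, -0.061 to 0.095) and Sirt6 (0.04, -0.106 to 0.191) had intervals that spanned 0. Without the pons library of aDR mouse 67, Sirt2 was at 0.05 and Sirt3 at 0.03 (adjusted p = 0.398 and 0.611). Among cell type markers, 2 of 5 endothelial genes were called with diet (median log2 change of the list -0.261), 1 of 5 microglial genes was called, and all 5 blood genes were higher (median 0.932, none called), and their part in the sirtuin values was not tested. When all libraries were treated as independent (voom with no replicate block), Sirt4 and Sirt7 passed with adjusted p of 0.0145 and 0.0368. That fit called 2760 of 15616 genes. With the mouse as replicate block none of the 7 sirtuins passed, beside 1474 of 15616 genes.

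Plasma of young mice gave no call either. None of the 7 sirtuins passed across regions, beside 0% of 15768 genes at an adjusted p under 0.05. At an unadjusted p under 0.05 there were also 0 sirtuins, beside 8.35% of genes, and 0 sirtuins had groups without overlap, beside 10.1% of genes. The largest differences were -0.11 for Sirt6 (95% interval -0.385 to 0.158, adjusted p = 0.819) and 0.10 for Sirt1 (95% interval -0.136 to 0.337, adjusted p = 0.816).

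Each of these fell close to 0 when 1 mouse was left out. Sirt1 was at 3.71, 4.15 and 3.81 in YMP mice 73, 77 and 81, and at 3.86, 3.83, 3.78 and 3.67 log2 CPM in PBS mice 72, 76, 80 and 84. Mouse 77 was above all others, and without it the difference was -0.03. Without mouse 73, the lowest YMP mouse, the difference was 0.20. The olfactory bulb library of mouse 73 held only 0.606 M counts. Sirt1 was at 1.52 CPM in it, against 7.53 and 8.30 CPM in YMP mice 77 and 81. With libraries under 2 M counts left out, 0 of the 7 sirtuins passed, beside 1 of 15777 genes. Sirt6 was at 3.02, 2.84 and 2.96 in YMP mice, and at 2.98, 2.92, 2.94 and 3.38 log2 CPM in PBS mice. Without PBS mouse 84 the difference was -0.01. The intervals of Sirt2 (-0.150 to 0.057), Sirt3 (-0.092 to 0.110), Sirt5 (-0.141 to 0.078), Sirt7 (-0.085 to 0.157) and Sirt4 (-0.184 to 0.232) all spanned 0. Across regions in these male mice the 12 oligodendrocyte markers were all lower with plasma, with a median log2 change of -0.145 and none called. All 8 markers of the choroid plexus epithelium were also lower (median -1.29, none called) and all 6 neuron markers higher (median 0.0453, none called). The summed choroid plexus markers did not overlap between groups in SVZ (PBS 2669 to 18980 CPM, YMP 25.9 to 47.7 CPM) or in corpus callosum (PBS 5143 to 18340 CPM, YMP 9.02 to 20.97 CPM). Sirt2, which follows the oligodendrocyte markers over regions, was at -0.05 (adjusted p = 0.808). The part of any of these marker lists in the sirtuin values was not tested.

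**Figure D3:**
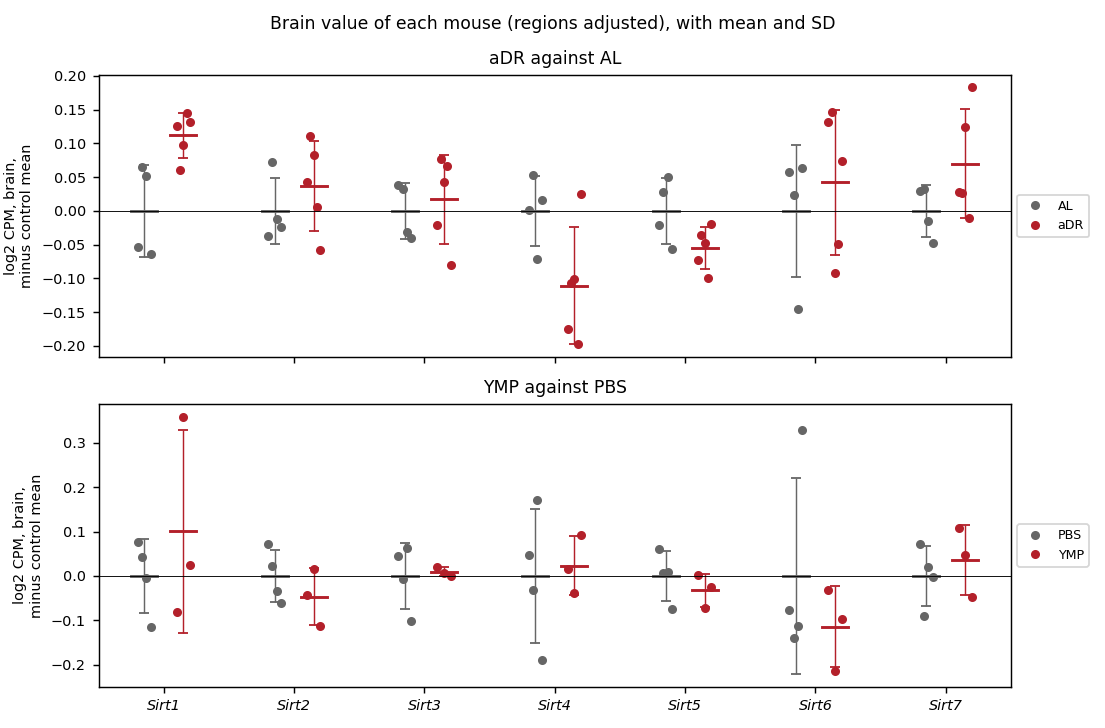
Brain value of each mouse (log2 CPM adjusted for region, minus the mean of the control mice) for the 7 sirtuins, diet above and plasma below, with the 2 panels on different vertical scales. Horizontal bars are means and error bars SD. The Sirt1 value of YMP mouse 77 and the Sirt6 value of PBS mouse 84 lie apart from the rest of their groups.

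Each tissue was also tested alone. For diet, 0 of the 112 sirtuin tests in 15 regions and liver passed an adjusted p of 0.05 (edgeR quasi-likelihood test, adjusted within each tissue), beside 0.0616% of all tests. At an unadjusted p under 0.05 there were 8 of 112, 4 higher and 4 lower, beside 6.39% of all tests, and the smallest adjusted p was 0.3. For plasma, 0 of 105 passed, beside 0.0127% of all tests, with 7 at an unadjusted p under 0.05, beside 6.11%, and a smallest adjusted p of 0.388. Leaving out 1 mouse moved the count at an unadjusted p under 0.05 to 4 (without aDR mouse 64 or AL mouse 66), 5 (without AL mouse 63) and up to 10 (without aDR mouse 67) for diet, and to 4 for plasma (without PBS mouse 72 or YMP mouse 77). Without the libraries closest to another region it was 7 for diet and 9 for plasma. DESeq2 called 0 sirtuin tests in both experiments, with 7 and 4 at an unadjusted p under 0.05. These shares do not set the sirtuins apart from other genes. The median size of a sirtuin difference within a tissue was 0.098 log2 units for diet and 0.104 for plasma, below the median SEs of 0.129 and 0.130. Treated and control values did not overlap in some tests of both experiments. The plasma groups were smaller and so separate more easily without any effect, and the experiments cannot be compared in this respect. The share over all genes is not given within tissues, so a lack of overlap in 1 tissue does not set a sirtuin apart.

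The largest within-tissue diet difference was that of Sirt4 in corpus callosum. The aDR mice 61, 62, 65 and 67 were at 6.77, 5.91, 5.78 and 6.81 CPM, and AL mice 63, 66 and 69 at 8.76, 10.1 and 8.32 CPM. The groups did not overlap, and the log2 difference was -0.51 (SE 0.156, unadjusted p = 0.0108). It did not pass among the genes of that region (adjusted p = 1). Sirt7 in medulla differed by 0.23 (unadjusted p = 0.0129), from 34.3 ± 2.21 CPM in AL (n = 4) to 39.8 ± 3.08 CPM in aDR mice (n = 5), Sirt3 in caudate putamen by 0.36 (unadjusted p = 0.0218) and Sirt5 in olfactory bulb by -0.27 (unadjusted p = 0.0233). None of these passed adjustment. The other 4 were Sirt5 in choroid plexus (-0.24), Sirt2 in cerebellum (-0.17), Sirt6 in motor cortex (0.32) and Sirt2 in SVZ (0.19), and without the libraries closest to another region the unadjusted p became 0.0653 for Sirt5 in choroid plexus and 0.0817 for Sirt2 in SVZ. The oligodendrocyte markers averaged 11090 CPM in AL and 7891 CPM in aDR cerebellum, and 17230 CPM in AL and 20550 CPM in aDR SVZ, and their part in the Sirt2 values was not tested. The Sirt3 value in caudate putamen included aDR mouse 64 at 102 CPM, above the 64.7 to 78.5 CPM of the other 4 restricted mice.

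For plasma, Sirt2 in caudate putamen differed by -0.50 (SE 0.173, unadjusted p = 0.0171, adjusted p = 0.474). It was at 150.5, 141 and 128 CPM in YMP mice 73, 77 and 81, and at 167, 261, 179 and 171 CPM in PBS mice 72, 76, 80 and 84. Mouse 76 was far above the others, and its library was also the one closest to corpus callosum, with 39990 CPM of oligodendrocyte markers against 16950 to 20270 CPM in the other PBS caudate libraries and 10990 to 17230 CPM in the YMP libraries. Without that library the Sirt2 difference was -0.32 (unadjusted p = 0.00644, adjusted p = 0.368). In anterior hippocampus Sirt2 was at -0.27 (unadjusted p = 0.0255, adjusted p = 0.683), and the marker sums there were 7244 to 8108 CPM in YMP and 8227 to 15350 CPM in PBS libraries.

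Sirt1 was higher with plasma at an unadjusted p under 0.05 in 3 regions. In cerebellum it was at 23.3, 23.5 and 22.7 CPM in YMP mice 73, 77 and 81, and at 18.7, 20.02 and 12.9 CPM in PBS mice 72, 80 and 84 (log2 0.44, unadjusted p = 0.0225). In pons it was at 10.8, 13.5 and 10.8 CPM against 8.40, 7.43 and 8.68 CPM in PBS mice 76, 80 and 84 (log2 0.51, unadjusted p = 0.0301). The groups did not overlap in these 2 regions. In anterior hippocampus the values were 17.4, 23.1 and 14.5 CPM against 9.21, 16.5, 13.1 and 9.83 CPM (log2 0.62, unadjusted p = 0.0293), and they overlapped. The adjusted p-values of the 3 tests were 0.447, 1 and 0.683. Sirt6 in pons, at -0.74 (unadjusted p = 0.0249), went from 7.49, 8.30 and 12.9 CPM in PBS mice to 6.497, 5.30 and 5.91 CPM in YMP mice. Sirt6 in entorhinal cortex was at -0.41 (unadjusted p = 0.0273), and at -0.36 (unadjusted p = 0.0592) without the library of PBS mouse 72.

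**Figure D4:**
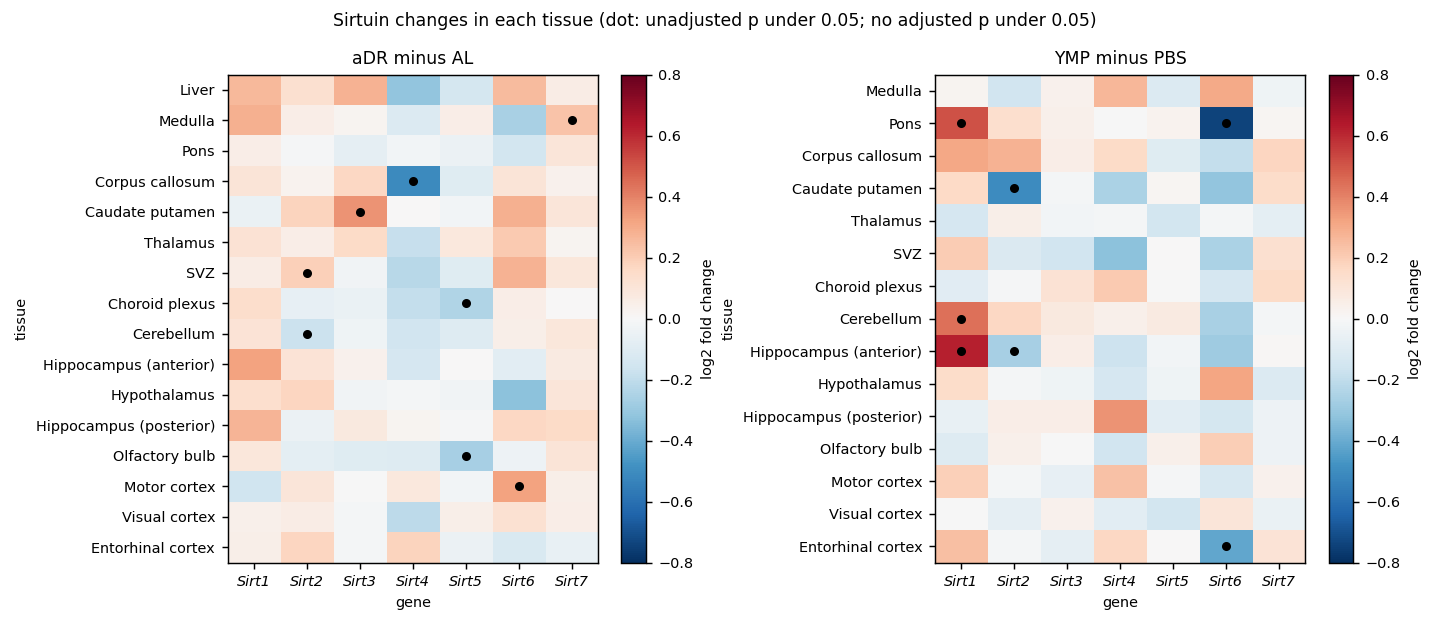
Log2 fold change of each sirtuin in each tissue for aDR against AL (left, 15 regions and liver) and YMP against PBS (right, 15 regions), on a colour scale from -0.8 to 0.8, with tissues ordered by Sirt2 in AL mice. Dots mark an unadjusted p under 0.05, of which there are 8 and 7, and no test passed after adjustment.

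Whether the treatments acted differently from region to region was tested with the region by treatment terms (edgeR F test). For diet 0 of 7 sirtuins passed, beside 0.0128% of genes, and for plasma 0 of 7, beside 0.824%. The smallest unadjusted p among the sirtuins was 0.249 for diet (Sirt6) and 0.0895 for plasma (Sirt2, adjusted p = 0.792). A p that misses the threshold does not show that the response was alike in all regions.

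Liver gave a contrast to brain in the AL mice. Sirt3 was at 227, 234, 175 and 212 CPM in liver of AL mice 63, 66, 68 and 69, above all their brain libraries, whose region means lay between 50.6 and 106 CPM. The log2 difference of liver from the mean of the brain regions was 1.45 (SE 0.0531, adjusted p = 3.09e-31). Sirt7 was higher by 1.13 (SE 0.0631, adjusted p = 4.585e-23), Sirt4 by 0.79 and Sirt5 by 0.52 (adjusted p = 2.881e-09 and 3.097e-08), and Sirt2 was at -0.73 (adjusted p = 7.01e-11). Sirt6 was at -0.51 (adjusted p = 0.00647), from liver values of 2.49, 7.93, 4.07 and 5.69 CPM, and lost the call without AL mouse 63 (-0.26, adjusted p = 0.202). Sirt1, at -0.22, did not pass (adjusted p = 0.256). The 6 of 7 called compare with 86.2% of all genes.

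These liver values depend on scaling. With plain library totals in place of TMM the median of all genes moved from -0.28 to -1.22. Sirt3 was then at 0.52, Sirt7 at 0.20, Sirt2 at -1.68 and Sirt6 at -1.44, with direction and call as before, while Sirt4 turned to -0.16 (adjusted p = 0.185) and Sirt5 to -0.43 (adjusted p = 3.303e-06), and Sirt1 passed at -1.15 (adjusted p = 3.544e-07). The change of scaling moved the sirtuins and the median gene by similar amounts. A position relative to the median gene is therefore nearly the same under both scalings by construction and is no check on them. By that position Sirt3, Sirt4, Sirt5 and Sirt7 lay above the median gene, and Sirt1 lay close to it (-0.22 against -0.28 with TMM). The direction of Sirt4 and Sirt5 in liver stays dependent on the scaling.

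Diet left no call in liver. Sirt3 was at 215, 288, 302, 235 and 222 CPM in liver of restricted mice 61, 62, 64, 65 and 67, which overlapped the AL values above (log2 0.28, SE 0.153, adjusted p = 0.655). Sirt4 was at 11.1, 12.6, 11.4, 7.70 and 11.8 CPM against 15.8, 13.8, 12.8 and 13.4 CPM, without overlap, and its difference of -0.31 had an adjusted p of 0.640. The liver change minus the brain change of the same mice passed for 0 of 7 sirtuins (limma), beside 0.0705% of genes. Its intervals were wide, from -0.07 to 0.58 for Sirt3 and from -0.55 to 0.11 for Sirt4.

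**Figure D5:**
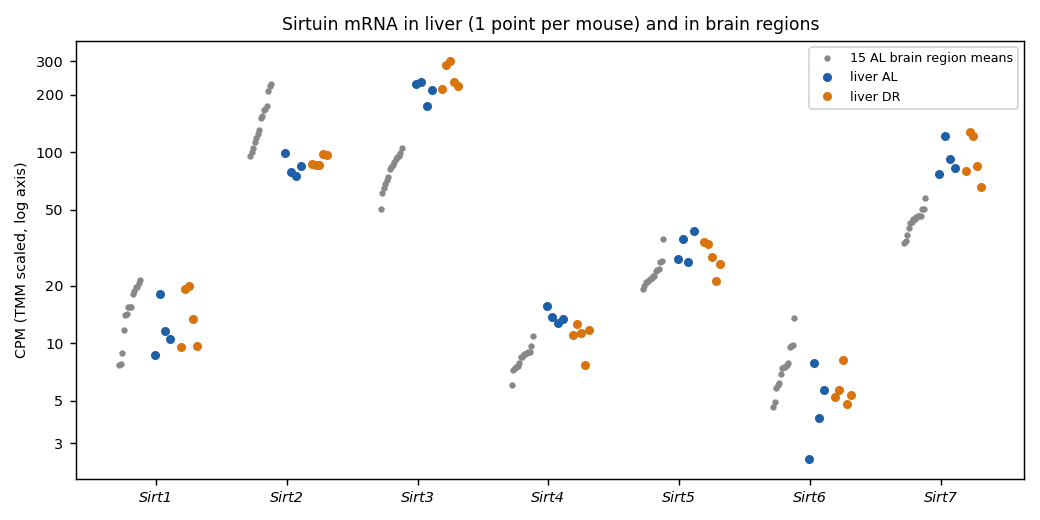
Level of each sirtuin (CPM, TMM scaled, log axis) in liver, with 1 point per mouse for AL (blue) and DR (orange), beside the means of the 15 AL brain regions (grey dots, sorted). Liver values of Sirt3 and Sirt7 lie above all brain region means, and AL and DR mice overlap for each sirtuin except Sirt4, whose DR values (7.70 to 12.6 CPM) lie below the AL values (12.8 to 15.8 CPM).

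The genes around the sirtuins were examined as lists. The lists were chosen with earlier results of these data known. Their counts of calls, here and below, are therefore descriptions and no test of a list against other genes. Of 25 partners and regulators of the nuclear sirtuins, 2 were called for diet across brain regions, beside 1.75% of all genes, both clock genes. Per2, a repressor of the clock, rose by 0.42 (SE 0.0646, adjusted p = 0.0143), and Arntl, the activator that binds E-boxes, fell by 0.32 on the log2 scale (SE 0.0341, adjusted p = 0.00212). Nr1h3, a liver X receptor, had the next largest value at -0.23 (adjusted p = 0.152). Arntl was also called in motor cortex alone (-0.53, adjusted p = 0.00129) and Per2 in olfactory bulb (0.66, adjusted p = 0.0176). Sirt1 in the same regions was at -0.16 in motor cortex and 0.09 in olfactory bulb, neither called. The median of the list was 0.025, against -0.006 over all genes.

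Of 18 tested targets of mitochondrial sirtuins, 1 was called for diet, beside 1.75% of all genes. It was Idh2, the mitochondrial isocitrate dehydrogenase that Sirt3 deacetylates, which rose by 0.24 (SE 0.0404, adjusted p = 0.0196). Mlycd (0.09, adjusted p = 0.202) and Acss1 (-0.08, adjusted p = 0.228) had the next largest values, and the median of the list was 0.025. Of 19 tested genes of NAD synthesis and recycling, 0 were called, with 1 at an unadjusted p under 0.05 and a median of 0.012. The largest values were those of Kynu (-0.21, adjusted p = 0.503), Qprt (-0.18, adjusted p = 0.486) and Aox1 (0.16, adjusted p = 0.302). Of 17 other NAD consumers 0 were called and 0 had an unadjusted p under 0.05, and the largest values were those of Parp9 (0.10), Macrod1 (0.09) and Parp8 (-0.08).

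The zinc-dependent histone deacetylases, the other deacetylase family of mammals, gave 0 calls of 11 for diet. An unadjusted p under 0.05 was found for 6 of 11, beside 16.8% of all genes, and 9 of 11 were lower, with a median of -0.025. Hdac9 (-0.16, adjusted p = 0.0934), Hdac1 (0.10, adjusted p = 0.184) and Hdac4 (-0.09, adjusted p = 0.203) had the largest values. Among the sirtuins 5 of 7 were higher and the median was 0.038. The difference between the families was not tested.

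With plasma no gene of any list was called across regions. The lowest adjusted p among the genes named was that of Acadl (-0.16, adjusted p = 0.367), a fatty acid oxidation enzyme, and 15 of 18 targets of mitochondrial sirtuins were lower, with a median of -0.034. Mccc1 (-0.15) and Acss1 (-0.12) followed. Per2 (0.18) and Arntl (0.15) were both higher in these males, with adjusted p of 0.616 and 0.509, and E2f1 was at 0.12. The largest values in the other lists were those of Aox1 (-0.29), Nmnat3 (0.17) and Nadsyn1 (-0.17) in NAD synthesis (genes averaging at least 5 CPM), Parp4 (-0.24), Cd38 (-0.18) and Tnks2 (-0.17) among NAD consumers, and Hdac5 (0.10), Hdac7 (-0.09) and Hdac8 (-0.08) among the zinc-dependent enzymes.

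In liver, 1 gene of the lists was called for diet, beside 0.22% of all genes. Nmrk1, a kinase that makes the NAD precursor NMN from nicotinamide riboside, rose by 1.08 (SE 0.164, adjusted p = 0.0254). The summed blood markers of the same livers were at 177 to 388 CPM in AL and 110 to 176 CPM in DR mice, without overlap, and endothelial markers averaged 314 and 433 CPM. Their part in the liver values was not tested. Against brain, with TMM scaling, 18 of 20 tested genes of NAD synthesis were called higher in liver of AL mice and 1 lower (median 4.28, against -0.28 over all genes), where 86.2% of all genes were called. Of the targets of mitochondrial sirtuins, 16 of 19 were called higher and 2 lower (median 2.26), and of the zinc-dependent histone deacetylases 2 of 11 higher and 8 lower (median -0.991).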

How the data were processed

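RNA of whole tissue was made into Smart-Seq2 and Nextera XT libraries without strand or molecular identifiers, per the labels' protocols. The authors deposited raw gene counts for 238 libraries, and Trim Galore 0.3.7, STAR 2.5.3a, DESeq2 and GRCm38 are named in the submitters' processing notes.

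From these counts log2 CPM was computed here with TMM factors and a prior count of 2. Genes passed filterByExpr (minimum count 10, total 15). Within tissues, between regions and for region by treatment terms, edgeR 4.0.16 quasi-likelihood tests were used in R 4.3.3, with Benjamini-Hochberg adjustment over all genes. Across regions, limma 3.58.1 compared 1 value per mouse. DESeq2 1.42.0 was an alternative. The fits were tested on simulated counts that held no mouse effect, unlike the data. The region by treatment F test recovered 52% of 200 genes changed by 1 log2 unit in a single region. The other fits tried recovered 89.3% to 100% of genes changed by 0.5 or 1 log2 units. Replicates are separate mice per the labels. Mouse numbers pair the regions of an animal, and deviations of libraries of the same mouse had a mean r of 0.0492 (diet) and 0.117 (plasma), against -0.0135 and -0.0463 for other mice. No replicate pair was a duplicate (357 pairs, chi-square per degree of freedom at least 1.29).

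The members and lists were chosen with earlier results of these data known. Named list genes are those called and the 3 with the largest change among genes of at least 5 CPM. Other normalizations, filters, tests, blocks and left-out mice, regions or libraries were tried. Plain library totals, limma without the variance trend and the omission of libraries closest to another region were chosen after seeing the data. Of the listed genes, 1 of NAD synthesis and 1 mitochondrial target were not analysed here.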

Additional observations from a re-analysis of the deposited data

Results flagged for a closer look

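In 294 groups of 4 or 5 samples, 16 had a highest or lowest value far from the others by Dixon's ratio, and chance flags about 1 in 20 groups, which here is 14.7. Of the values per mouse, Sirt6 of PBS mouse 84 was at 3.38 log2 CPM, with the next at 2.98. For Sirt1 the values were 10.7 CPM in caudate putamen of aDR mouse 64 (the other 4 from 19.4 to 21.6), 25.4 CPM in entorhinal cortex of the same mouse (next 20.7), 9.24 CPM in pons of aDR mouse 65 (next 12.1) and 18.1 CPM in caudate putamen of PBS mouse 80 (next 20.1). For Sirt2 they were 261 CPM in caudate putamen of PBS mouse 76 (next 179) and 118 CPM in entorhinal cortex of PBS mouse 72 (next 95.6), both in libraries closest in whole profile to another region. Sirt3 was at 107 CPM in motor cortex of AL mouse 63 (next 97.5). Sirt4 was at 13.7 CPM in pons of aDR mouse 67 (next 8.63), the library with pituitary genes, and at 9.63 CPM in thalamus of aDR mouse 65 (next 7.48). Sirt5 was at 25.1 CPM in hypothalamus of aDR mouse 62 (next 23.4). Sirt6 was at 8.22 CPM in liver of DR mouse 64 (next 5.71), 10 CPM in motor cortex of AL mouse 63 (next 7.2) and 11.9 CPM in motor cortex of PBS mouse 84 (next 7.99). Sirt7 was at 27.8 CPM in hypothalamus of AL mouse 69 (next 34.8) and 46.5 CPM in SVZ of PBS mouse 76 (next 50.5).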

How the results depend on the processing

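Of 132 alternative values of the counts of called tests, 130 stayed within 1.5 times the main count. The other 2 came from voom with no replicate block, which called 2 sirtuins for diet and 1 for plasma (Sirt1, 0.17, adjusted p = 0.0407) across regions, against 0 and 0 with the mouse as replicate block. Of all genes, voom with no block called 2760 of 15616 for diet and 2629 of 15768 for plasma, and with the block 1474 and 486. The replicate block gave 55 region calls in AL and 50 in PBS mice, with all 53 and 47 main calls among them, and changed no other call. Leaving out each mouse in turn gave 43 to 53 region calls in AL, 35 to 44 in PBS mice and 5 to 6 liver calls. Of 392 alternatives for single sirtuins, 370 kept direction and side of the threshold and 17 changed sign. Leaving out 1 mouse moved Sirt3 from -0.00103 to 0.0426 and Sirt6 from -0.00658 to 0.0779 for diet, and for plasma Sirt1 from -0.0297 to 0.198, Sirt3 from -0.0284 to 0.0274 and Sirt4 from -0.0452 to 0.0795. For liver minus brain the ranges were -0.0186 to 0.3003 (Sirt1), -0.174 to 0.0176 (Sirt5), -0.0296 to 0.496 (Sirt6) and -0.156 to 0.125 (Sirt7). Without choroid plexus Sirt3 was at -0.000906 for plasma. With plain library totals Sirt4 was at -0.16 and Sirt5 at -0.43 in liver against brain. The cause of these changes was not tested. The number of mice, 2 to 5 a group within a region, limits what could be detected.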
